A study of Mus musculus with 10 samples.

Results

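The cells described here are 117 of the 537 cells of the d2 EB library, chosen by the detection (at least 1 UMI, a molecule counted once by its barcode) of 2 or more of the 5 genes Pitx1, Tbx4, Hoxc8, Hoxc9 and Hoxa9, with cells that the study lists as PGCLC (primordial germ cell-like cells) kept out. They made up 21.8% of d2 EB cells, with an exact Clopper-Pearson 95% interval of 18.4 to 25.5%. Of the remaining 420 cells, 91 were listed as PGCLC and 329 were not. d2 EB are embryoid bodies of wild type E14Tg2a mouse ESC. They were aggregated from d2 EpiLC (epiblast-like cells made over 2 days in 20 ng/ml Activin A and 12 ng/ml bFGF) and kept for 2 days in a medium with 0.5 µg/ml BMP4, 0.1 µg/ml SCF, 1000 U/ml LIF and 50 ng/ml EGF. The same E14Tg2a series held 2i ESC, S+L ESC (grown in serum and LIF), d1, d2 and d3 EpiLC, EpiSC (passaged epiblast stem cells) and d4 EB, which had 4 days in the EB medium. A separate pair of d4 EB libraries came from R1 ESC, either wild type or Mll3/4 dCD, in which the histone methyltransferases MLL3 and MLL4 carry mutations that remove their catalytic activity. Each condition was 1 library, and each R1 genotype was 1 line.

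Mesoderm leaves the primitive streak under BMP, WNT, FGF and NODAL signals, and its position along the body axis is recorded by Hox genes, which lie in 4 clusters and are switched on in the order in which they lie. Low paralogue numbers mark anterior cells and high ones posterior cells. Cdx transcription factors act upstream of the trunk Hox genes. Pitx1 and Tbx4 are transcription factors best known for setting hindlimb identity in the posterior lateral plate, and Tbx4 is also a gene of the allantois, the extraembryonic mesoderm that becomes the umbilical vessels. BMP4, which induces germ cells in culture, is also known to promote posterior and extraembryonic mesoderm.

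Of the 5 genes, Tbx4 and Hoxa9 had an entry in the RefSeq promoter table (build GRCm38.p6), which gives 250 bases before and 50 after each start. These are shown with the promoters of Hoxa7 and Hoxa10, which flank Hoxa9 on the same strand and had the highest ratios in the chosen cells among genes with at least 100 UMIs, rule genes aside. For Hoxa10, which had more than 1 start in the table, the more distal is shown. Capitals mark TTTAT on either strand, the core that Cdx and posterior Hox proteins bind.
Tbx4 (chr11:85896515-85896814, plus strand): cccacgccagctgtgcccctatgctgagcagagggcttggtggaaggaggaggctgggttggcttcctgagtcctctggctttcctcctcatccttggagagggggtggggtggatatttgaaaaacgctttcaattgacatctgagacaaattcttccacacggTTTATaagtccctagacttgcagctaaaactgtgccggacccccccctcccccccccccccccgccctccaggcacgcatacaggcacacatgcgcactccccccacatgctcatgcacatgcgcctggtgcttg
Hoxa9 (chr6:52227321-52227620, minus strand): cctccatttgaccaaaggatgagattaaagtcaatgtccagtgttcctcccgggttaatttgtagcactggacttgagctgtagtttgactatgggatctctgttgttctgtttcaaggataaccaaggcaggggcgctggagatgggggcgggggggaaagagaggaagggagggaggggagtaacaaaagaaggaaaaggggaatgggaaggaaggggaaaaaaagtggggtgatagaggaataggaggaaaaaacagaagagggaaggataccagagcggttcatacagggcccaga
Hoxa7 (chr6:52218524-52218823, minus strand): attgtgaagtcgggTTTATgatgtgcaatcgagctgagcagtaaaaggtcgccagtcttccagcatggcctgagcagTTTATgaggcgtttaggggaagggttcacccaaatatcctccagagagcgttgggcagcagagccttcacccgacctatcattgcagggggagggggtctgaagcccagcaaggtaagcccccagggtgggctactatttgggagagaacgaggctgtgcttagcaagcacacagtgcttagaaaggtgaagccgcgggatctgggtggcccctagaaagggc
Hoxa10 (chr6:52240805-52241104, minus strand): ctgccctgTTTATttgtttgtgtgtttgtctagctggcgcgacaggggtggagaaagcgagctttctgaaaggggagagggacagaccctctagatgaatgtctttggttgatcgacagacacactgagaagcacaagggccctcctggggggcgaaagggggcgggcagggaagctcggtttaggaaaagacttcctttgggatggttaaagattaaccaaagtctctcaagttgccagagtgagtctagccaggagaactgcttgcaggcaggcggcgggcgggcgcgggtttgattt
TTTAT occurred 2 times in the Hoxa7 promoter, 1 time each in those of Tbx4 and Hoxa10 and 0 times in that of Hoxa9. It was present in 13143 of the 32851 promoters of the table, so its presence here describes the sequences and marks nothing particular to them. The letters TGATTNAT, bound by Pbx-Hox pairs, were in 3.22% of promoters and in 0 of these 4 windows on either strand. The Gata letters AGATAAG were in 3.04% of promoters and also in 0 of the 4. The T-box letters GGTGTGA were in 3.98% of promoters and likewise in 0 of the 4.

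The 5 genes of the rule chose the cells, and their levels are given as a description. Levels are UMIs of a gene per 1000000 UMIs of a whole group of cells (CPM), and the intervals of levels, ratios and shares are exact 95% intervals that cover counting error only. Pitx1 (chr13:55825051-55836192, GRCm38) was at 76.4 CPM (67.2 to 86.6) in the chosen cells, with a UMI in 70 of 117. Tbx4 (chr11:85886422-85916097) was at 30.6 CPM (24.8 to 37.3), with a UMI in 47 cells. Hoxc9 (chr15:102976439-102985099) was detected most often, in 102 cells and at 93.6 CPM (83.3 to 105), while Hoxc8 (chr15:102990607-102994111) was detected in 82 cells at 71.4 CPM (62.5 to 81.3). Hoxa9 (chr6:52223100-52231089) was detected in 74 cells at 48.4 CPM (41.0 to 56.6). The counts behind these values were small, and a chosen cell held a median of 2 Hoxc9 UMIs and a highest of 9, against a median of 0 and a highest of 9 for Tbx4.

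The overlap of Hox and hindlimb genes is given within the chosen cells only, as a description. A Hox gene was found together with Pitx1 or Tbx4 in 77 of the 117 cells, whereas 38 cells had Hox genes of the rule only and 2 had Pitx1 and Tbx4 only. Pitx1 was detected in 80.9% of the 47 chosen cells with Tbx4, and Tbx4 in 54.3% of the 70 with Pitx1. Pitx1 was detected in 63.4, 57.8 and 64.9% of chosen cells with Hoxc8, Hoxc9 and Hoxa9, against 59.8% of all chosen cells. For Tbx4 the values were 41.5, 37.3 and 43.2%, against 40.2%. Since the rule asks for 2 genes at once, it sets much of these overlaps. They therefore cannot show whether the genes go together.

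There were 46 chosen cells with exactly 2 of the genes, 22 with 3, 28 with 4 and 21 with all 5. Just outside the rule, 92 unlisted cells had 1 gene and 237 had none. Hoxc9 stood at 70.9 CPM in cells with 2 genes and at 19.7 CPM in cells with 1, while Pitx1 stood at 25.1 and 20.1 CPM and Tbx4 at 8.07 and 2.93 CPM. Median UMIs per cell were 22972.5 with 2 genes, 27541.5 with 3, 26584.5 with 4 and 30064 with 5, against 23729.5 with 1 and 23072 with none, and the part of depth in the number of genes detected was not tested. Over all chosen cells the median was 25234 UMIs, against 23554 in the other unlisted cells and 29664 in the listed PGCLC. The median share of mitochondrial UMIs was 4.01% in the chosen and 3.94% in the other unlisted cells. Of the chosen cells 2 were called doublets by Scrublet, and 1 shared its 16-base barcode with a cell of another E14Tg2a library.

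The same rule found few cells before EB formation (plot of shares by library). It was met by 0 cells in S+L ESC and in d1, d2 and d3 EpiLC, which allows shares of up to 0.971, 1.07, 1.04 and 0.752%, by 1 of 227 cells in 2i ESC and by 7 of 373 in EpiSC. Among unlisted cells it was met by 26.2% (22.2 to 30.6%) of 446 in d2 EB and by 78.4% (73.5 to 82.8%) of 324 in d4 EB. Thinned to 18267 UMIs per cell, the shares were 24.3% at d2 and 70.5% at d4. Within d2 EB the extraembryonic ectoderm marker cluster described below had Hoxc8 in 0 of 59 cells and Hoxc9 in 3.39%, at a median of 35770 UMIs. Pitx1, Tbx4 and Hoxa9 are not given for that cluster. Igfbp2, among its leading genes, had a log2 ratio of -4.33 in the chosen cells over all other d2 EB cells. With 1 or more rule genes asked for it was -1.91, and how many cells of that cluster held 1 gene is not given. Hoxc8 and Hoxc9 were detected in 17.9% and 26.1% of all d2 EB cells, at a median of 24510 UMIs. In 2i ESC, a separate library with a median of 33971 UMIs, they were detected in 3.08% and 3.52% of cells. The 7 EpiSC had a different combination, with Hoxc9 in all 7 and neither Pitx1 nor Tbx4 in any.

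**Figure D1:**
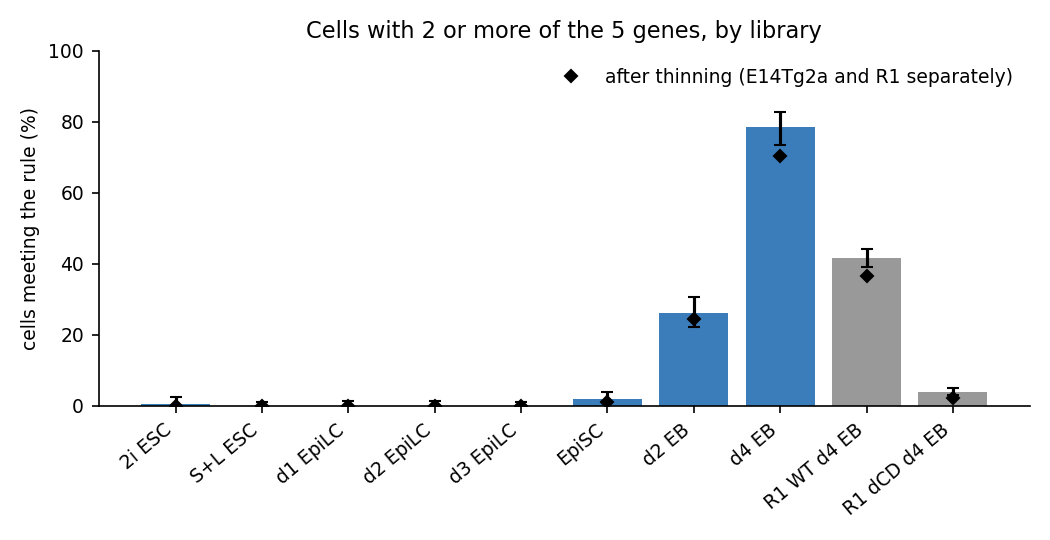
Share of cells in each library that had 2 or more of Pitx1, Tbx4, Hoxc8, Hoxc9 and Hoxa9. It is a percentage of cells not listed as PGCLC in E14Tg2a (blue) and of all cells in R1 (grey), where no PGCLC list was applied. Bars carry exact 95% intervals for counting error and diamonds give the share after thinning, to 18267 UMIs in E14Tg2a and 7507 in R1; d2 EB stood at 26.2%, between 0 in d3 EpiLC and 78.4% in d4 EB.

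In the R1 line the rule was met by 588 of 1416 wild type d4 EB cells, or 41.5% (38.9 to 44.1%), and by 66 of 1699 dCD cells, or 3.88% (3.02 to 4.92%). After thinning to 7507 UMIs the shares were 36.6% and 2.06%. No list of PGCLC was applied to R1, so PGCLC were not kept out of these cells. The paper reports that the PGCLC cluster of these libraries held mainly wild type cells. The effect of this on the shares was not tested. Each value rests on 1 library, so genotype, clone and library cannot be told apart. R1 and E14Tg2a were made with different chemistry and their shares are not compared.

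Against all other d2 EB cells, the chosen cells differed in a broad set of posterior Hox and lateral mesoderm genes on the higher side, and in epithelial, germ cell, pluripotency and extraembryonic ectoderm genes on the lower side. A gene was called by size, at a ratio of at least 2 with 1 CPM added to both levels, among genes with at least 50 UMIs over both groups. Of 9750 genes tested 105 were higher (1.08%, the 5 rule genes included) and 530 lower (5.44%). There was 1 library, so no test was possible, and the genes below that are correlated with the rule genes in the same cells had to differ: they describe what these cells are. The comparison group is mixed, as k-means clustering of d2 EB put the cells into 3 clusters. The cluster of 380 held all 117 chosen cells, 258 other unlisted and 5 listed ones. That of 98 held 86 listed PGCLC, and that of 59, led by 3830417A13Rik, Tinagl1 and Igfbp2 and with Esx1 among its leading genes, had none of them and is called the extraembryonic ectoderm marker cluster below. For this reason the ratios over the 258 unlisted cells of the same cluster, where 41 of 8490 genes were higher (0.483%) and 158 lower (1.86%), are given beside those over all others. The other 329 unlisted cells as a whole lay between, with 59 of 9199 genes higher (0.641%) and 397 lower (4.32%).

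The Hox genes were the most complete group. Of the 36 Hox genes not used by the rule 20 had 50 UMIs, and 15 of these were higher and 0 lower, with a median log2 ratio of 1.28 against -0.05 over all genes tested. Over the same cluster 9 of 19 were higher and 1, Hoxb1, lower. Hoxa7 was at 99.5 CPM (88.9 to 111) in the chosen cells, 13.1 CPM (10.3 to 16.3) in the rest of the same cluster, 4.09 CPM in listed PGCLC and 0.431 CPM in the extraembryonic ectoderm marker cluster. It was thus 12.4-fold (9.79 to 15.8) higher than in all others and 7.62-fold (5.93 to 9.89) higher than in the same cluster. At 18267 UMIs per cell it was detected in 63.6% of the chosen and 16.8% of the same-cluster cells (70.9% and 16.7% before thinning).

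Hoxa10 was at 49.0 CPM in the chosen and 5.53 CPM in the same-cluster cells, 8.86-fold (6.06 to 13.3) apart. Hoxb6 was more widely present, at 109 CPM against 27.3 CPM, 3.99-fold (3.30 to 4.83) apart. Hoxc10 held 78 UMIs in the chosen cells and 7 in all other d2 EB cells, a ratio of 39.8 (18.4 to 102). Neighbours in a cluster were thus high together, and reads of adjoining or read-through Hox transcripts could be split between their gene models in counting.

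Several Hoxb genes of low paralogue number were near or below the level of the cluster. Hoxb1, the anterior gene that is among the first to be switched on, was at 10.6 CPM in the chosen and at 24.8 CPM in the same-cluster cells, 2.34-fold (1.60 to 3.50) lower. Hoxb2 (56.2 and 51.3 CPM) and Hoxb4 (8.74 and 7.87 CPM) were nearly level. Hoxb8 was 2.29-fold (1.83 to 2.87) and Hoxb9 2.10-fold (1.53 to 2.88) higher, and Hoxa11 5.46-fold (2.98 to 10.6). Hoxd9 had the highest CPM of the Hox genes named here, 188 in the chosen cells, yet it was also at 135 CPM in the rest of the same cluster. The most posterior genes were sparse: Hoxa13 had 30 UMIs in the chosen cells, Hoxc11 20 and Hoxd13 14, and Hoxb13 and Hoxc12 had 0.

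**Figure D2:**
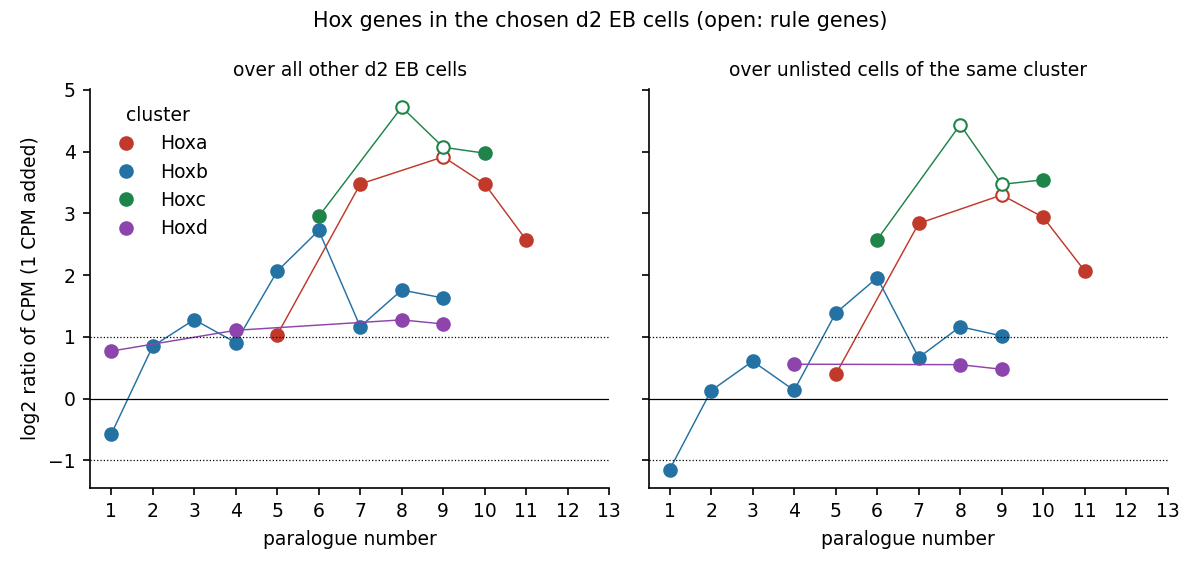
Log2 ratio of CPM (1 CPM added) of the 117 chosen cells over all other d2 EB cells (left) and over the 258 unlisted cells of the same k-means cluster (right), by Hox paralogue number and coloured by cluster; genes with at least 50 UMIs are drawn, and open points are the rule genes Hoxc8, Hoxc9 and Hoxa9. Dotted lines mark ratios of 2 in either direction; Hoxb1 lies below 0 in both panels and the Hoxa and Hoxc genes from 6 upwards lie above 2 on the log2 scale.

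Of the Cdx, Meis and Pbx factors, 9 were tested and Cdx4 and Cdx2 were higher. Cdx4 was at 42.7 CPM in the chosen cells, 3.33-fold (2.62 to 4.23) above all others and 1.84-fold (1.44 to 2.34) above the same cluster. Cdx2 was at 385 CPM and was detected in 99.1% of the chosen and 94.6% of the same-cluster cells, with a ratio of 1.44 (1.34 to 1.55) between them. Cdx1 was at 9.67 CPM against 14.4 CPM. None of the 3 Cdx genes was called over the same cluster.

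Lateral plate genes were in part higher and in part shared with the rest of the cluster. Of 11 tested genes of the hindlimb field and lateral plate list, 5 were higher than in all others (Hand2, Foxf1, Tbx2, Gata4 and Irx3) and 0 lower, with a median log2 ratio of 0.77. Foxf1, a forkhead factor of lateral plate and extraembryonic mesoderm, was at 123 CPM (111 to 136) in the chosen cells, 53.3 CPM (47.6 to 59.5) in the same cluster, 13.8 CPM in the extraembryonic ectoderm marker cluster and 2.73 CPM in listed PGCLC. It was detected in 104 of the chosen cells. Hand2, which patterns limb and heart mesoderm, was 3.35-fold (2.01 to 5.70) above the same cluster at 45 UMIs in the chosen cells. Tbx2 was at 45.2 CPM and 2.08-fold (1.63 to 2.65) higher.

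In contrast, Hand1, which is needed for extraembryonic and cardiac mesoderm, was at 988 CPM in the chosen and 1075 CPM in the same-cluster cells. Gata6 (26.8 and 34.5 CPM) and Msx1 (352 and 318 CPM) were likewise close. Of limb bud mesenchyme genes, Prrx1 had 12 UMIs and Tbx5, the forelimb counterpart of Tbx4, had 0.

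The label posterior mesoderm was set against markers of other tissues. Of 19 tested genes of the extraembryonic mesoderm and allantois list 2 were higher than in all other cells (Hoxa11 and Cdx2) and 1, Ahnak, lower. Over the same cluster 18 were tested, with 1 (Hoxa11) higher and 0 lower. Vim (413 CPM), Pmp22 (168 CPM) and Tbx20 (32.4 CPM) were present in the chosen cells and within 1.5-fold of the same cluster, while Postn had 0 UMIs. Posterior lateral plate and extraembryonic mesoderm share most of these markers, and the lists did not separate them in these cells. Of 4 tested genes of the paraxial mesoderm list 1 (Foxc1) was higher than in all other cells and 3 (Tcf15, Rspo3 and Hes7) lower. Over the same cluster 2 were tested, with 0 higher and 1 (Rspo3) lower. Msgn1, which marks presomitic mesoderm, was at 0 and Tbx6 at 1.25 CPM.

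Of 6 tested genes of the endothelium and blood list 1, Kdr, was higher than in all other cells and 2, Cldn5 and Gata2, were lower. Of 5 tested over the same cluster Kdr was higher and Cldn5 lower, and Gata2 was at 14.7 and 20.6 CPM. Kdr, the VEGF receptor of blood and vessel progenitors, was at 18.1 CPM (13.7 to 23.4), 2.57-fold (1.70 to 3.92) above the same cluster, and was detected in 29.9% of the chosen cells (20.9% after thinning). Etv2, the factor that starts the endothelial programme, was at 34.9 CPM against 35.7 CPM. Tal1 had 1 UMI and Cldn5, a tight junction gene of endothelium, had 3, and 5 of the 16 genes of the endothelium and blood list were at 0. The summed level of that list was 82.4 CPM in the chosen and 89.6 CPM in the same-cluster cells.

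Twist1, a mesenchymal transcription factor, was at 38.1 CPM (31.6 to 45.4) against 12.6 CPM (9.88 to 15.8) in the same cluster, 3.03-fold (2.25 to 4.09) higher. Zeb1 was 2.67-fold (1.52 to 4.77) higher. Cdh1, the epithelial cadherin, was at 8.11 CPM, 2.77-fold (1.81 to 4.39) lower than in the same cluster, while Cdh2 was at 52.7 and 60.5 CPM. Snai1 was nearly level (67.7 and 58.1 CPM) and Snai2 was lower (4.06 and 10.2 CPM, 2.52-fold). Of the 15 tested genes of this switch, 3 were higher and 5 lower than in all other cells.

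Other genes among the 15 with the highest ratio over all other cells were Cntfr, the receptor subunit for ciliary neurotrophic factor (28.4 CPM, 4.71-fold, 3.41 to 6.54), Greb1 (65.2 CPM, 4.31-fold, 3.51 to 5.31), Spin2c (64.9 CPM, 4.15-fold, 3.38 to 5.10), the semaphorin and VEGF co-receptor Nrp1 (41.5 CPM, 3.71-fold, 2.89 to 4.77) and Morc4 (90.2 CPM, 3.01-fold, 2.56 to 3.53). Over the same cluster their ratios were 3.94, 2.86, 2.96, 2.08 and 1.89.

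A part of the primitive streak genes was lower. Of 13 tested genes of the streak and nascent mesoderm list, Nodal, Fgf8, T and Dll3 were lower than in all other cells and Cdx4 higher. Over the same cluster 5 of 12 were lower, namely Fgf8, Nodal, Mesp1, T and Mixl1. Fgf8, a growth factor of the streak, was at 24.96 CPM in the chosen and 146 CPM in the same-cluster cells, 5.83-fold (4.64 to 7.43) lower. Mesp1, which marks mesoderm as it leaves the streak, was at 51.2 and 170 CPM, 3.33-fold (2.82 to 3.95) lower. T (brachyury) was at 23.7 and 71.2 CPM, 3.00-fold (2.35 to 3.89) lower. Evx1, of the posterior streak, was at 29.3 and 41.7 CPM and was not called. Rspo3, which enhances WNT signalling, was 4.04-fold (3.44 to 4.76) lower.

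The genes with the lowest ratios over all other cells belonged mostly to the other 2 clusters. Cldn6, a claudin of early epithelia, had 0 UMIs in the chosen cells and 307 in the others, at least 28.7-fold lower (3 counts over the group). 3830417A13Rik, Crb3, Vgll3 and Krt7 also had 0. Cryab had 1 UMI, Tinagl1 3 and Cldn4 4, and Igfbp2 was at 8.11 CPM against 805 CPM in the extraembryonic ectoderm marker cluster and 10.1 CPM in the same cluster. Dppa3 and Tfap2c, genes of germ cells, had 4 and 5 UMIs in the chosen cells against 103 and 90.0 CPM in listed PGCLC. Utf1 and Lefty1 were 20.9-fold (11.9 to 40.6) and 22.0-fold (8.50 to 81.2) lower than in all others, and Sfn 25.6-fold (12.4 to 64.0). Over the same cluster Utf1 had a ratio of 1.31 (0.573 to 2.92) and Dppa3 of 1.86 (0.347 to 10.0), so these 2 were low in the whole cluster. Lefty1, Tinagl1, 3830417A13Rik, Vgll3 and Crb3 also had log2 ratios smaller than 1 in size over the same cluster, from -0.99 for Tinagl1 to -0.22 for Crb3, on 1 to 17 UMIs in its other cells.

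Of the 7 tested PGC genes 6 were lower than in all other cells, of 9 extraembryonic ectoderm genes 6, and of 12 core and naive pluripotency genes 10, with 0 higher in each. Since the rule keeps listed PGCLC out of the chosen cells and leaves them among the others, it sets a part of the PGC and pluripotency counts. Against the other unlisted cells 2 of 3 tested PGC genes (Tfap2c and Dnd1) and 1 of 7 pluripotency genes (Klf5) were lower, and over the same cluster 1 of 2 (Dnd1) and 1 of 7 (Klf5). The 6 extraembryonic ectoderm genes were lower against the other unlisted cells as well, but over the same cluster 0 of 3 were called. The extraembryonic ectoderm marker cluster was picked by the highest summed level of Esx1, Rhox6 and Rhox9. These are in the extraembryonic ectoderm list, so that choice set a part of its level. The summed extraembryonic ectoderm list was at 161 CPM in the chosen, 165 CPM in the same-cluster and 488 CPM in the extraembryonic ectoderm marker cluster, and 4 of its 12 genes were at 0 in the chosen cells. The summed PGC list was at 36.2, 51.8 and 60.8 CPM in these groups and 484 CPM in listed PGCLC. Pou5f1 was still detected in 90.6% of the chosen cells, at 150 CPM against 289 CPM in the same cluster and 824 CPM in listed PGCLC. Keratin Krt18 was at 144 CPM, 1.59-fold (1.43 to 1.77) below the same cluster and far below the 2165 CPM of the extraembryonic ectoderm marker cluster.

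**Figure D3:**
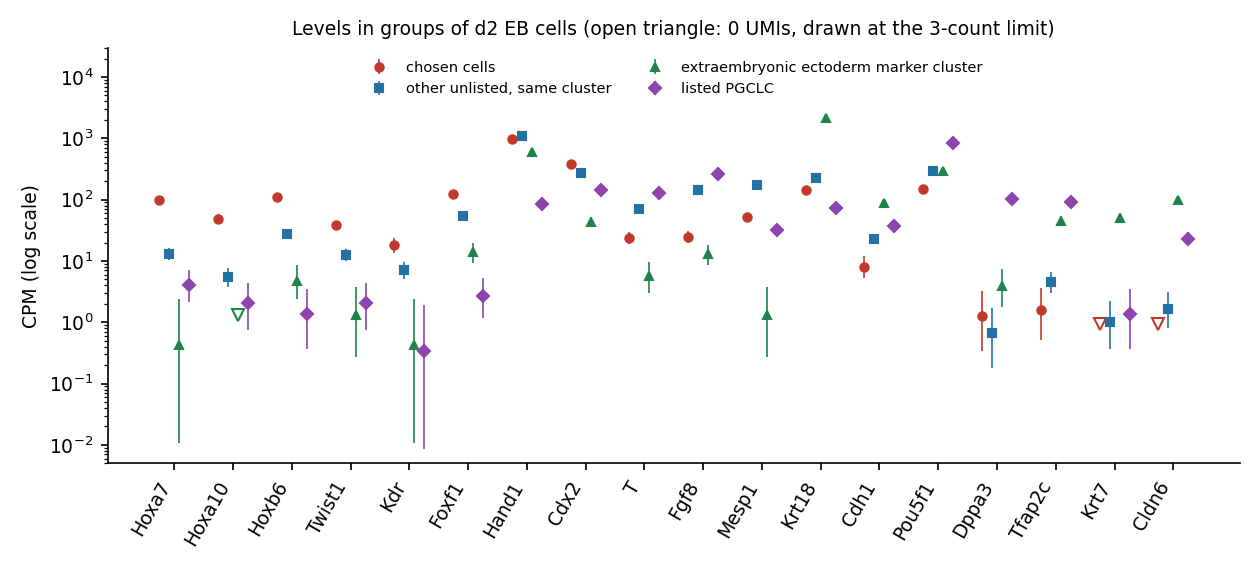
CPM on a log scale of 18 genes in 4 groups of d2 EB cells: chosen cells, other unlisted cells of the same k-means cluster, the extraembryonic ectoderm marker cluster and listed PGCLC; vertical lines are exact 95% Poisson intervals and open triangles mark 0 UMIs, drawn at the level of 3 counts. Hoxa7, Hoxa10, Hoxb6, Twist1 and Kdr are highest in the chosen cells, Hand1 is close to the same cluster, and Krt7 and Cldn6 have 0 UMIs in them.

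Against all other d2 EB cells, genes of signalling pathways were called in both directions. Over the same cluster 0 genes of the BMP, WNT, FGF and retinoic acid lists were higher. Lower there were Id4 and Bmper of 12 tested BMP genes, Rspo3 of 11 WNT genes and Fgf8 of 10 FGF genes. Of 7 retinoic acid genes 0 were lower. The counts that follow are over all other cells. Of 14 tested BMP genes 1 (Bmp7, 2.11-fold, 1.65 to 2.70) was higher and 1 (Id4) lower than in all other cells, and the median log2 ratio was 0.06. Id1, a direct BMP target, was at 641 CPM in the chosen and 851 CPM in the same-cluster cells, and Bmp4 at 82.4 and 124 CPM. Of 13 FGF genes 2 (Fgf15 and Fgf3) were higher and 2 (Fgf8 and Fgf4) lower. Of 14 WNT genes 0 were higher and 3 (Notum, Rspo3 and Dkk1) lower, with Wnt5a at 130 CPM, 1.22-fold (1.07 to 1.38) above the same cluster. Of 8 retinoic acid genes Crabp1, a retinoic acid binding protein, was higher, at 150 CPM and 2.33-fold (2.07 to 2.62) over all others. Cyp26a1, which degrades retinoic acid, was at 78.6 CPM and 1.61-fold (1.38 to 1.87) higher, below the size that was called. The 3 tested hedgehog genes and the 9 tested collagen and matrix genes were called in neither direction.

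The cell cycle lists did not separate the groups either. All 12 S phase and 12 mitosis genes were tested and 0 were called. The summed mitosis level was 1398 CPM in the chosen and 1399 CPM in all other cells, though 1147 CPM in the same cluster, and S phase genes summed to 902, 886 and 820 CPM.

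Levels changed by steps with the number of rule genes detected in a cell (plot of CPM against that number). The 59 cells of the extraembryonic ectoderm marker cluster and the 12 unlisted cells of the cluster of 98 all had 0 or 1 of the genes. The summed extraembryonic ectoderm list was at 289, 163 and 166 CPM in unlisted cells with 0, 1 and 2 genes. The part of this mix of clusters in the courses below was not tested. In unlisted cells with 0, 1, 2, 3, 4 and 5 of the genes, Hoxa7 was at 4.90, 21.0, 51.1, 58.6, 136 and 175 CPM, and Hoxa10 at 1.80, 9.64, 19.7, 44.0, 73.3 and 72.9 CPM. Foxf1 went from 32.5 CPM with none to 111 CPM with 2 and 115 CPM with 5. Thus the cells with 1 gene, outside the rule, lay between those with none and the chosen cells for these genes.

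Fgf8 and Mesp1 ran the other way. Fgf8 was at 145, 83.4, 36.8, 22.8, 24.0 and 7.76 CPM. Mesp1 was nearly level at 123, 116 and 99.6 CPM up to 2 genes and then at 21.2, 37.3 and 13.97 CPM. T reached its lowest value, 8.14 CPM, with 3 genes and stood at 35.7 CPM with all 5, so its course was not even. Hand1 was at 849 CPM with none and at 774 CPM with 5.

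**Figure D4:**
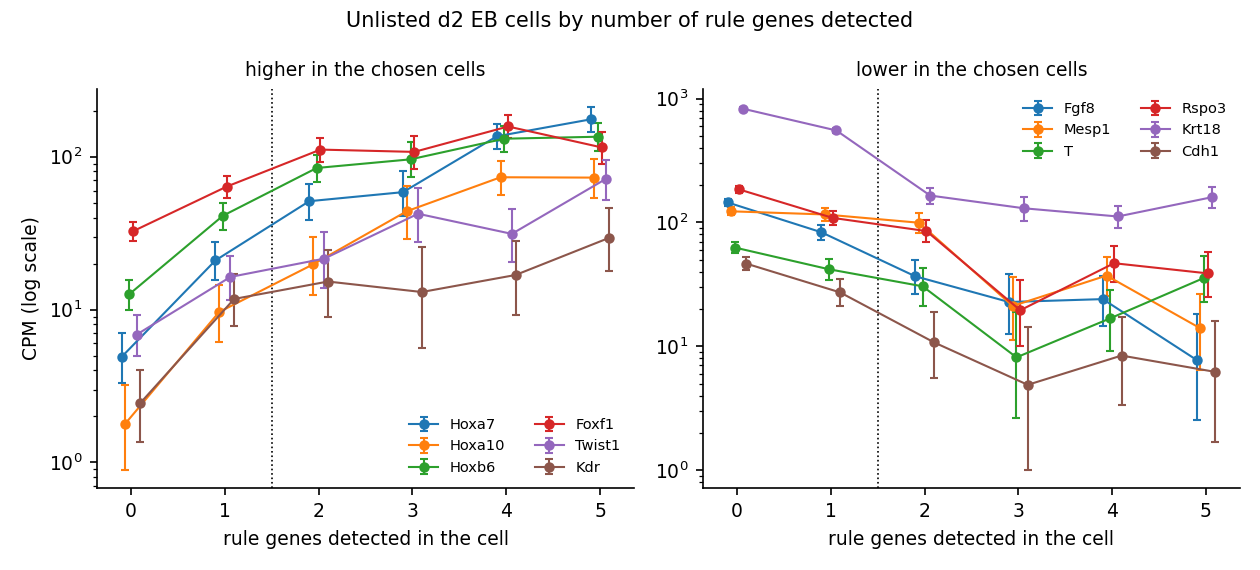
CPM on a log scale of 6 genes higher (left) and 6 genes lower (right) in the chosen cells, in unlisted d2 EB cells grouped by how many of the 5 rule genes were detected; lines through points are for reading only, bars are exact 95% Poisson intervals and the dotted line marks the threshold of the rule. Hoxa7 goes from 4.90 CPM with none to 175 CPM with all 5, and Fgf8 from 145 to 7.76 CPM. Cells from outside the k-means cluster of the chosen cells lie only to the left of the dotted line.

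The chosen cells were not uniform. k-means put them into clusters of 52, 43 and 22 cells. The cluster of 22 was led by Fgf8, Selenop, Mesp1, Ifi35 and Gbp2. Fgf8 was at 106 CPM there and 11.3 CPM in the other chosen cells, Mesp1 at 183 and 28.8 CPM, Rspo3 at 151 and 36.8 CPM and T at 60.4 and 17.5 CPM. Of these 22 cells 14 had exactly 2 rule genes, against 20 of 52 and 12 of 43 in the others, and their median depth was 21303.5 UMIs.

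Their Hox levels were not uniformly lower. Hoxa7 was at 112 CPM in the 22 cells and 97.4 CPM in the other chosen cells, and Hoxc9 at 86.3 and 94.8 CPM. Hoxb6 was at 69.0 and 116 CPM and Tbx4 at 12.9 and 33.6 CPM. The summed mitosis genes were at 423 CPM in these cells and 1563 CPM in the others.

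The cluster of 43 was led by the mitotic genes Prc1, Sgo1, Fam83d, Ect2 and Aspm and had the deepest cells, with a median of 32327 UMIs. The cluster of 52 was led by Msmo1, of sterol synthesis, and Mars, Spata5, Apip and Prph, with log2 ratios of 1.80 and below. These leading genes define the clusters and are no test. With 2 clusters a group of 29 cells had the same 5 leading genes as the 22, and with 4 clusters a group of 22 cells had them too, while 1 shallow cell of 8140 UMIs stood alone.

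At d4 254 cells met the same rule, and they differed from the d2 cells by more genes than the d2 cells did from their neighbours. Of 8958 genes tested 1108 were higher at d4 (12.4%) and 266 lower (2.97%), with a median log2 ratio of 0.13 over all of them, and stage and library cannot be told apart. Of 15 tested collagen and matrix genes 12 were higher, 0 lower, and the median log2 ratio was 3.38. Col3a1 had 0 UMIs at d2 and was at 125 CPM at d4, at least 133-fold higher. Col1a2 was at 4.06 and 174 CPM, 42.9-fold (24.95 to 80.8) apart. Igfbp5, an IGF binding protein, had 1 UMI at d2 and was at 301 CPM at d4, a ratio of 963 (173 to 38073). Wnt2, a ligand of allantois and lateral plate, had 0 UMIs at d2 and was at 186 CPM at d4, at least 199-fold higher. Markers of extraembryonic ectoderm differed between the same groups. Of 6 tested genes of that list 4 were higher at d4 (Rhox6, Rhox9, Ascl2 and Plac1) and 0 lower, and 3 of 12 were at 0 at d4 against 4 at d2. Their summed level was 161 CPM at d2 and 493 CPM at d4, of which Plac1, also in the extraembryonic mesoderm list, gave 80.8 and 331 CPM. Their part in the d4 result was not tested.

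Of 9 tested streak and nascent mesoderm genes 6 were lower at d4 and 1, Pdgfra, a growth factor receptor of mesoderm, was higher (7.49 and 72.8 CPM). Cdx4 and Fgf8 had 0 UMIs at d4, at least 85.3-fold and 49.8-fold lower. Mesp1 was at 1.17 CPM, 43.8-fold (20.8 to 111) lower, and T had 1 UMI. Cdx2 was at 33.4 CPM, 11.5-fold (9.91 to 13.4) lower than the 385 CPM of d2. Cyp26a1 was 26.2-fold (16.2 to 44.9) lower.

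The Hox genes shifted among themselves. Of 22 tested, 4 were higher (Hoxd13, Hoxd11, Hoxc10 and Hoxa11) and 8 lower (Hoxd9, Hoxb6, Hoxb8, Hoxb2, Hoxa7, Hoxb9, Hoxb5 and Hoxd8). Hoxb6 was at 109 CPM at d2 and 16.5 CPM at d4, 6.59-fold (5.25 to 8.32) lower, and Hoxa7 at 99.5 and 26.9 CPM. Hoxc10 was at 24.3 and 53.6 CPM, 2.20-fold (1.71 to 2.86) higher, and Hoxd13 at 4.37 and 21.0 CPM, 4.82-fold (2.77 to 9.06) higher. Those that were higher thus had paralogue numbers of 10 or above and those that were lower 9 or below. Hoxa10 (49.0 and 70.8 CPM) and Hoxc6 (20.9 and 20.0 CPM) were called in neither direction.

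Among lateral plate genes Hand2 was 10.1-fold (7.45 to 13.9) and Gata6 7.38-fold (5.93 to 9.30) higher at d4, and Prrx1 went from 3.74 to 84.7 CPM. Hand1 went the other way, from 988 to 216 CPM, and Foxf1 was at 123 and 79.5 CPM. Twist1 was at 228 CPM at d4, 6.00-fold (4.98 to 7.28) higher. Of 13 tested endothelium and blood genes 10 were higher and 0 lower, among them Emcn and the embryonic globin Hbb-y, which had 0 UMIs at d2. These are levels of pooled cells, and how many d4 cells held such transcripts is not given. Cldn5 had a log2 ratio of 5.16, and of 3.90 when each cell had equal weight.

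**Figure D5:**
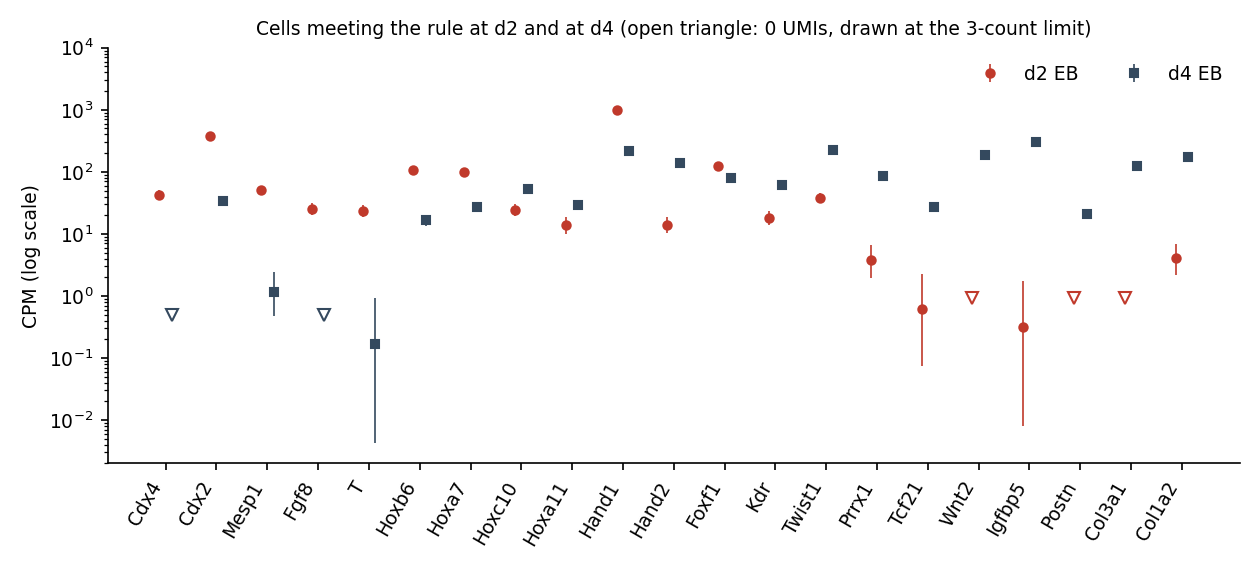
CPM on a log scale of 21 genes in cells that met the rule at d2 (117 cells) and at d4 (254 cells); vertical lines are exact 95% Poisson intervals and open triangles mark 0 UMIs, drawn at the level of 3 counts. Cdx, streak and middle Hox genes lie lower at d4, and matrix genes lie higher, from 0 UMIs at d2 for Wnt2, Postn and Col3a1.

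The contrast of cells that met the rule with all others was made in the same way inside later libraries. The same 5 genes picked the cells each time, so genes that follow them had to recur. The overlaps below describe this and are no independent support. As at d2, the listed PGCLC were among the other cells of d4 EB, which sets a part of the overlap of lower genes. The barcode of 1 chosen cell also occurred in d4 EB. Within d4 EB 8.55% of 9338 genes were higher and 7.23% lower, and within R1 WT d4 EB 331 of 11443 were higher (2.89%) and 797 lower (6.96%). Within R1 dCD d4 EB, where 66 cells met the rule, 546 of 12028 were higher (4.54%) and 1093 lower (9.09%). Rule genes aside, 100 genes were higher at d2, of which 85 were tested in d4 EB. Of these 59 were higher there as well, or 69.4% of the d2 genes tested and 7.44% of the d4 genes called, and 2 were lower. In R1 WT 42 of 98 were higher, or 42.9% and 12.9%, and 4 were lower. In R1 dCD 44 of 82 were higher, or 53.7% and 8.13%, and 2 were lower. Of the 530 genes lower at d2, 367 were tested in d4 EB and 230 were lower there, or 62.7% and 34.1%, and 15 were higher. In R1 WT 257 of 478 were lower, or 53.8% and 32.2%, and 6 were higher. In R1 dCD 165 of 503 were lower, or 32.8% and 15.1%, and 22 were higher.

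Single genes differed in how they carried over. Hoxa7 was 3.74-fold (2.46 to 5.90) higher within d4 EB and 36.6-fold (19.5 to 77.3) within R1 WT, and Hoxa10 17.1-fold and 25.7-fold. Foxf1 was 8.21-fold (5.82 to 11.9) and 5.20-fold (4.31 to 6.30) higher, and Twist1 13.1-fold and 6.31-fold. Kdr, at 4.71-fold in d2 EB, had ratios of 1.26 (1.05 to 1.52) and 0.966 (0.792 to 1.18). Rspo3, which was 3.12-fold (2.66 to 3.67) lower at d2, was 1.99-fold (1.62 to 2.45) higher in d4 EB and 4.56-fold (4.06 to 5.13) higher in R1 WT.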

How the data were processed

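Libraries of E14Tg2a cells were made with the 10x Genomics 3′ kit (v2 chemistry). The UMI counts per gene and cell were deposited by the authors, who counted with Cell Ranger on GRCm38 and aggregated the 8 libraries to equal mapped reads per cell. The R1 counts (v3 chemistry) were deposited after cells with fewer than 2000 expressed genes were removed. The annotation is not given in the sources used here. E14Tg2a cells were assigned to libraries by barcode suffix and to PGCLC by the list of the study's supplement. R1 cells were assigned to libraries by barcode prefix, and no PGCLC list was applied to them. The table held 27998 identifiers, of which 27645 were paired with a symbol by a table of gene IDs and names, gene positions came from the GENCODE annotation of GRCm38, and 0 columns of values were left unused. Libraries held 8757170 to 22887974 UMIs, and median depth was 21658 to 36750 UMIs per cell in E14Tg2a and 11751 to 13187.5 in R1. Cells are not replicates and each condition had 1 library, so no p-value was computed.

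The UMIs of all cells in a group were added up and expressed as CPM. Ratios have exact conditional 95% intervals, levels exact Poisson and shares Clopper-Pearson intervals; a count of 0 is limited by 3 counts. Genes with at least 50 UMIs over both groups were called at a log2 ratio of 1 or more in size, with 1 CPM added. Thinning drew UMIs without replacement (seed 1) to the 10th percentile of d2 EB or of R1 cells. k-means used 20 principal components of the 2000 most variable genes (scikit-learn 1.9.0); doublets were called by Scrublet in scanpy 1.11.5 and kept. The comparison was checked on simulated counts. Named genes were those of the rule, of 24 fixed lists, and the 15 highest and 15 lowest ratios over all other d2 EB cells among genes with at least 100 UMIs. Igfbp5 and the list genes described as uncalled were chosen after their values were seen. Of the genes this rule names, 2 are not reported here. The members and lists were chosen with earlier results of these data known. Alternatives changed the rule, the depth, doublets, pseudocount, UMI minimum, weights of cells, centring and ratio.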

Additional observations from a re-analysis of the deposited data

Results flagged for a closer look

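Sox3, a transcription factor of epiblast and neural ectoderm, was called in opposite directions by the same contrast at the 2 stages. The log2 ratio of cells meeting the rule over the other cells was -1.87 in d2 EB and 3.00 in d4 EB. The difference was not tested, as each stage was 1 library. The d2 comparison holds the listed PGCLC among the other cells. Against the other unlisted cells Sox3 had under 50 UMIs and was not called (log2 -1.02), nor was it over the same cluster (-1.03). At d2 the chosen cells held 6 Sox3 UMIs, at 1.87 CPM against 23.2 CPM in listed PGCLC, and at d4 the level was 22.5 CPM.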

How the results depend on the processing

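No paired analysis was possible because each condition had 1 library and the comparisons came from no test. The share of d2 EB cells chosen, 21.8%, was 38.9% with 1 or more and 13.2% with 3 or more of the genes, and 18.1% or 14.9% when Hoxc8 or Hoxc9 was left out of the rule; Pitx1, Tbx4 or Hoxa9 left out, thinning, doublets left out and listed PGCLC counted gave 18.8 to 22.3%. The counts of genes higher and lower in the chosen cells stayed within 1.5-fold of 105 and 530 under all of these rules. They were 50 and 235 with 5 CPM added, 46 and 192 with 200 UMIs, 164 and 922 with 10 UMIs, 412 and 1196 at a ratio of 1.5, 28 and 215 at a ratio of 3, and 41 and 158 over the same cluster, a comparison chosen after seeing the data. Against the other unlisted cells they were 33 and 181, 24 and 139, 118 and 742, 276 and 991, and 22 and 136 under the first 5 of these settings. At d4 the counts were 416 and 103 with 200 UMIs, 1809 and 475 with 10 UMIs, 2139 and 721 at a ratio of 1.5 and 532 and 120 at a ratio of 3, and 908 and 231 among cells with 4 or 5 of the genes at each stage, also chosen after seeing the data. Over the same cluster the log2 ratios of Utf1 and Dppa3 changed sign, to 0.30 and 0.43, and 8 other named genes came under 1 in size: Tinagl1 at -0.99, Lefty1 -0.78, 3830417A13Rik -0.59, Vgll3 -0.42, Igfbp2 -0.28, Crb3 -0.22, Cdx4 0.85 and Morc4 0.91. With 1 or more rule genes Vgll3 was at -0.92. Depth limits the sparse genes most, as a gene under 50 UMIs was not called.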
